A study of Mus musculus with 24 samples.

Results

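The effect of adrenalectomy on the mouse cochlea after noise by day was described from 6 RNA-seq libraries of 24 in the series, 3 from adrenalectomized (ADX) mice and 3 from sham-operated mice. The 6 were chosen by their labels alone, as ADX a, b and c and sham-operated a, b and c of the day noise exposure. All 6 came from whole cochleae of CBA/Sca mice aged 12 weeks, a strain with good hearing that is often used in noise studies. The mice of both groups had heard 1 h of noise (band 6 to 12 kHz, level 100 dB SPL), starting 3 h after lights-on (ZT3). For comparison, the 3 ADX and 3 sham-operated libraries of the sham exposure by day, which had no noise, and the 3 and 3 of the noise exposure by night (ZT15) were used. Collection is put at 2 h after noise in the design text but at ZT11 (day groups) and ZT23 (night groups) in the sample labels, and neither source resolves this. Whether each library came from its own animal is not stated in the labels, so the p-values may measure technical spread alone. Hormone levels and hormone replacement are not given in the labels.

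Removal of the adrenal glands takes away the main source of corticosterone, the glucocorticoid of rodents, and of aldosterone. Corticosterone binds the glucocorticoid receptor, which moves to the nucleus, switches on genes such as Fkbp5 and Tsc22d3 and holds down many genes of inflammation. In the cochlea, loud sound is known to switch on immediate early genes, stress genes and chemokines within hours, and glucocorticoids are given to protect hearing. The comparison asks which cochlear transcripts differed after the same day noise when the adrenal glands were absent.

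Reads were counted per gene, with 19143581 counts in sham-operated b as the lowest total of the 6 libraries and 36108962 in ADX b as the highest. Levels are given as CPM, which are counts scaled to library size with TMM factors. Changes are given as the log2 of ADX over sham-operated with a 95% confidence interval. Defining markers of the cochlea were present, with all 14 hair cell genes and all 12 genes of the stria vascularis passing the filter on low counts. That filter used all 24 libraries, so passing it does not show presence in these 6. Atoh1, one of the 14 hair cell genes, measured only 0.0379 to 0.365 CPM in them. Genes of neutrophils and red blood cell precursors were detected as well. In bulk RNA, fewer cells of a type and less RNA per cell cannot be told apart.

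After day noise, no gene passed the threshold between ADX and sham-operated cochleae. Of 16607 genes tested with edgeR's quasi-likelihood test, 0 (0%) had a Benjamini-Hochberg adjusted p under 0.05, and the smallest adjusted p was 0.371. At an unadjusted p under 0.05 stood 1950 genes, 926 (5.58%) higher and 1024 (6.17%) lower in ADX. In 979 genes (5.9%) the 3 ADX libraries all lay above the 3 sham-operated ones, and in 1136 (6.84%) all below. DESeq2 called 2 genes, Tril and Pcdh20, both lower in ADX (log2 change -0.70 and -0.77, adjusted p = 0.0328 for each), and limma voom called 0. The median standard error of a log2 change was 0.106. Genes are therefore named below with their values and not as calls.

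The 3 ADX libraries were not alike. Distances between libraries were taken over the 14319 genes with a mean log2 CPM over 1. ADX a differed from the 3 sham-operated libraries by a root mean square of 0.196 to 0.221 on the log2 CPM scale. It differed from ADX b and ADX c by 0.269 and 0.292. ADX b and c differed from each other by 0.206 and from the sham-operated libraries by 0.261 to 0.325, whereas the sham-operated libraries differed among themselves by 0.235 to 0.25. By this measure ADX a lay nearer to the sham-operated group than to the other libraries of its own group. No hormone level or other check of the operation was among the data used here, for ADX a or for ADX b and c. Their labels were therefore taken as given, and values of the ADX group hold only as far as those labels do. With ADX a left out, 760 of 16756 genes passed the adjusted threshold, 358 (2.14%) higher and 402 (2.4%) lower in ADX. With any other of the 6 libraries left out, 0 passed. Since the choice of the library to leave out followed from the values, the 760 are given as a description, beside the results they touch.

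**Figure D1:**
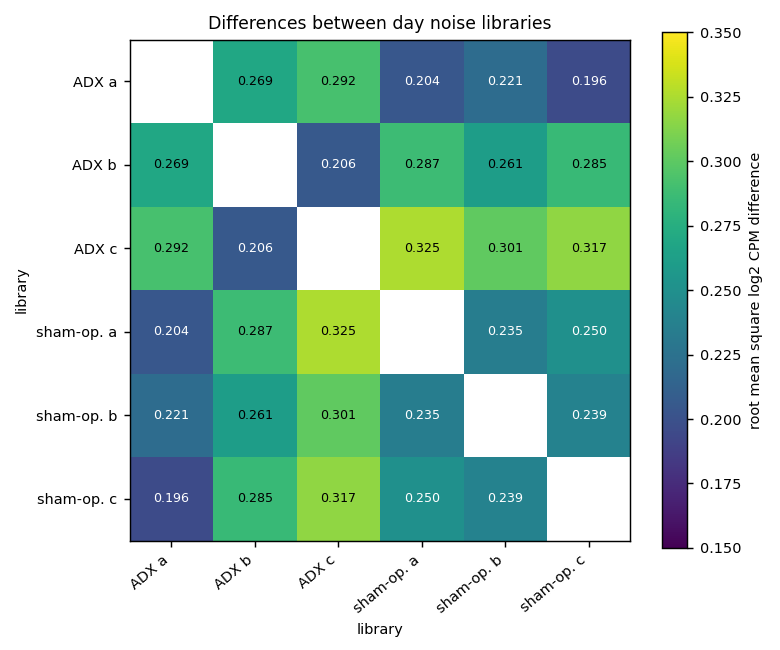
Differences between the 6 day noise libraries. Each cell gives the root mean square difference in log2 CPM between the library of its row and that of its column. It was taken over the 14319 genes with a mean log2 CPM over 1, and the colour scale runs from 0.15 to 0.35. ADX a differs less from the 3 sham-operated libraries (0.196 to 0.221) than from ADX b and c (0.269 and 0.292).

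Transcript length moved with these libraries. The Spearman correlation across 15536 genes between transcript length and a library's deviation from the mean level of the 24 libraries was 0.036 in ADX a, -0.315 in ADX b and -0.139 in ADX c, against -0.115, 0.146 and 0.088 in sham-operated a, b and c. Genes with transcripts of up to 2126 bases deviated on average by -0.0234, 0.122 and 0.0289 (log2) in ADX a, b and c, against -0.00184, -0.02 and -0.0158 in the sham-operated libraries. ADX b was thus the library with the highest values of short transcripts among the 6. Its part in the results below was not tested.

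The genes that glucocorticoids switch on showed no shared shift to lower values in ADX after day noise. Of 26 such genes 25 were tested, 15 had a higher and 10 a lower mean in ADX, and their median log2 change was 0.12, against -0.000351 over all genes. At an unadjusted p under 0.05 stood 2 higher and 0 lower, beside the 5.58% and 6.17% of all genes. Without noise by day, the same comparison gave 15 of the 25 lower at an unadjusted p under 0.05, where 904 genes (5.44%) of all were, with a median of -0.36. After night noise 13 of the 25 were lower at that level, where 799 genes (4.81%) of all were, with a median of -0.42. None of these members passed the adjusted threshold in any of the 3 comparisons.

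Fkbp5, a co-chaperone that dampens the glucocorticoid receptor and is a standard readout of it (chromosome 17, 28399094 to 28517527, GRCm38), measured 68.2, 56 and 61.1 CPM in ADX a, b and c after day noise, against 85, 60.9 and 41.7 CPM in the sham-operated libraries. The 3 ADX values lay within the range of the sham-operated ones. Its log2 change was -0.0222 (95% interval -0.67 to 0.63, adjusted p = 0.981, edgeR). Without noise Fkbp5 measured 30.5, 35.5 and 35.4 CPM in ADX and 82.6, 72.1 and 57.6 CPM in sham-operated cochleae. Those groups did not overlap, with a log2 change of -1.07 (adjusted p = 0.201, edgeR). The test of the difference of these effects gave 1.04 (adjusted p = 0.253, edgeR).

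Zbtb16, a transcription factor that glucocorticoids induce strongly (chromosome 9, 48654297 to 48836222), showed the same order of levels. It measured 52.6, 31.4 and 30.9 CPM in ADX and 58.1, 36.1 and 23.9 CPM in sham-operated cochleae after day noise, and 16.1, 19.4 and 19.1 CPM in ADX and 86.6, 56.5 and 45.7 CPM in sham-operated cochleae without noise. Its log2 change was -0.0472 after noise (95% interval -0.94 to 0.85) and -1.79 without it, and the difference of the effects was 1.74 (adjusted p = 0.197, edgeR). Hif3a, a hypoxia-inducible factor that glucocorticoids also raise, had 5.74, 5.15 and 4.13 CPM in ADX and 8.03, 5.21 and 2.03 CPM in sham-operated cochleae after noise, and 1.2 to 1.5 CPM in ADX and 4.23 to 6.57 CPM in sham-operated cochleae without noise. For Tsc22d3 (GILZ), an anti-inflammatory target (chromosome X, 140539528 to 140600659), the levels were 117, 101 and 108 CPM in ADX and 126, 106 and 82.2 CPM in sham-operated cochleae after noise. Within the sham-operated group all 4 of these genes were highest in library a and lowest in library c.

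Sgk1, a kinase that glucocorticoids and aldosterone induce and that promotes sodium uptake (chromosome 10, 21882184 to 21999903), was one of the 2 members at an unadjusted p under 0.05. It measured 285, 266 and 313 CPM in ADX and 208, 252 and 246 CPM in sham-operated cochleae after day noise. All 3 ADX libraries lay above all 3 sham-operated ones, with a log2 change of 0.29 (95% interval 0.0406 to 0.54, adjusted p = 0.39, edgeR). Without noise the order was the other way round, with 107, 124 and 113 CPM in ADX and 143, 133 and 159 CPM in sham-operated cochleae. The other member was Dusp1, a phosphatase that switches off MAP kinases, with 111, 140 and 166 CPM in ADX and 69.5, 126 and 95.1 CPM in sham-operated cochleae (log2 change 0.52, adjusted p = 0.399, edgeR). Sgk1, Dusp1 and Per1 are also induced by stimuli other than glucocorticoids. Per1, a clock gene and a direct glucocorticoid target, measured 123, 108 and 127 CPM in ADX and 125, 103 and 75.6 CPM in sham-operated cochleae after noise, and 45.6 to 50.6 CPM in ADX and 69.6 to 83.1 CPM in sham-operated cochleae without it.

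**Figure D2:**
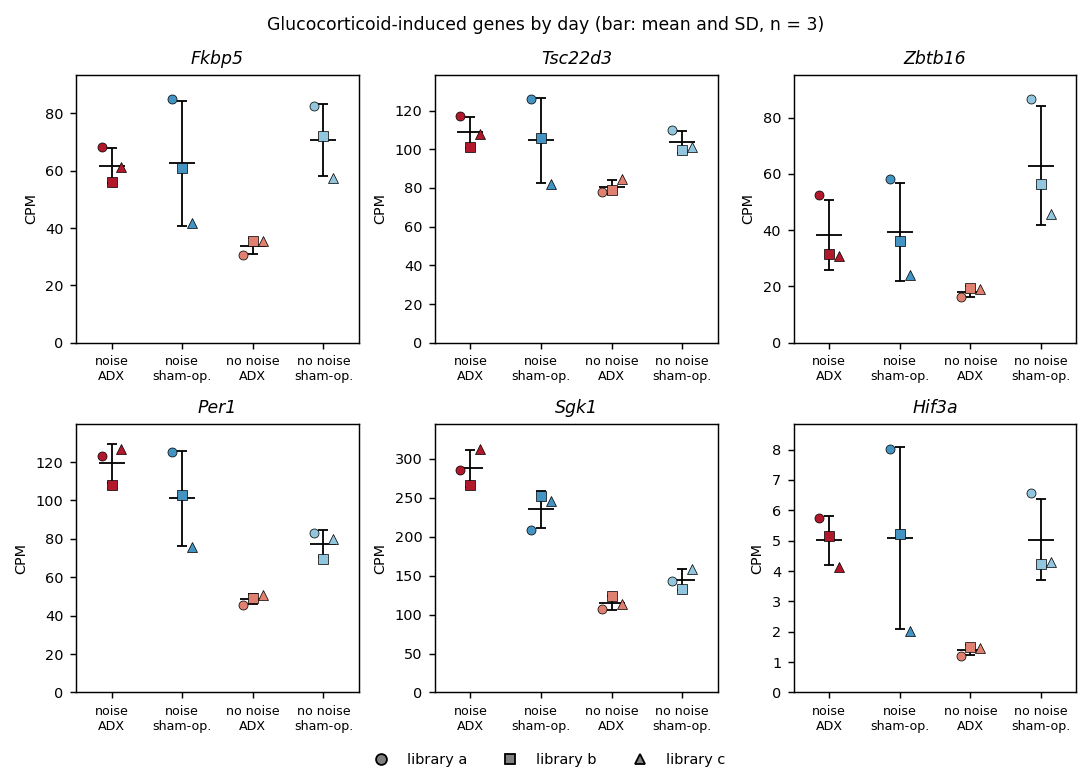
Levels of 6 glucocorticoid-induced genes by day. The y axes give CPM from 0, the points are the libraries a, b and c of each group, and the bars give mean and SD (n = 3). In the noise groups the ADX values of Fkbp5, Tsc22d3, Zbtb16 and Hif3a lie within the range of the sham-operated values, while without noise all 3 ADX values lie below all 3 sham-operated ones in all 6 genes.

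Averaged over the tested members of this list, the level of each library relative to the mean of the 24 libraries was 0.259, 0.186 and 0.226 (log2) in day noise ADX a, b and c, against 0.276, 0.172 and -0.136 in day noise sham-operated a, b and c. The 3 ADX libraries were close to one another and to sham-operated a and b, and sham-operated c was the lowest of the 6. Without noise by day the ADX libraries stood at -0.565, -0.483 and -0.489, against 0.118, -0.0329 and 0.00733 in the sham-operated libraries. After night noise the ADX libraries spread from -0.459 to 0.486 and the sham-operated ones from 0.416 to 0.554. The night noise library with 0.486, ADX a, also held pituitary transcripts. They summed to 9987 CPM over 6 pituitary genes, where the 6 day noise libraries held 69.55 to 141.2 CPM. The part of these transcripts in the value of 0.486 was not tested. In the test of the difference between the day effects, 16 of the 25 genes were higher at an unadjusted p under 0.05, where 1292 genes (7.78%) of all were, and 0 of 16607 genes (0%) passed the adjusted threshold in edgeR's test. Over all genes 2716 had an unadjusted p under 0.05 in it, DESeq2 called 160, voom called 264, and edgeR called 811 with day noise ADX a left out.

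The glucocorticoid receptor binds pairs of half-sites facing each other across a gap of 3 bases. Promoter sequences (RefSeq, GRCm38.p6, 250 bases before to 50 bases after the start site) were found for 23 of the 26 listed genes, and the palindrome of GNACA and TGTNC with 3 bases between them occurred in 4 of them, Sgk1, Mt1, Fam107a and Map3k6. Over all 27025 gene symbols with such a sequence, 145 (0.537%) held it. The palindrome reads as itself on the opposite strand. The 30 bases around it are shown, 5′ to 3′ on the strand of the gene, with the palindrome in capitals, so that Sgk1, described above, can be set beside the other matches:
Sgk1, chr10:21993694-21993723, plus strand: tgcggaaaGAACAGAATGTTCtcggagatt
Mt1, chr8:94178987-94179016, plus strand: cactatagGGACATGATGTTCcacacgtca
Fam107a, chr14:8309876-8309905, minus strand: ggtggcttGGACATGGTGTTCtgagtctcg
Map3k6, chr4:133240629-133240658, plus strand: gaatagggGCACAGGCTGTTCcggaagtgg

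The 4 genes with the palindrome in this window did not move together after day noise. Their log2 changes were 0.29 for Sgk1, 0.15 for Mt1 (a metal-binding metallothionein), -0.12 for Fam107a (an actin-binding protein induced by stress) and -0.0683 for Map3k6 (a stress kinase), and none passed the threshold. A match is a description of the letters in this window and shows no binding.

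Neither receptor gene passed the threshold. Nr3c1, the glucocorticoid receptor, measured 119, 114 and 123 CPM in ADX and 114, 121 and 128 CPM in sham-operated cochleae after day noise, a log2 change of -0.028 (95% interval -0.18 to 0.12, adjusted p = 0.89, edgeR). Nr3c2, the mineralocorticoid receptor that binds aldosterone and corticosterone, measured 30.8, 22.7 and 20.4 CPM in ADX and 31.1, 25.8 and 33.7 CPM in sham-operated cochleae (log2 change -0.30, adjusted p = 0.425, edgeR). ADX b and c were the lowest of the 6, and with ADX a left out Nr3c2 passed the threshold, lower in ADX (-0.48, adjusted p = 0.0486, edgeR). Hsd11b1, the enzyme that regenerates active glucocorticoid inside cells, measured 24.1, 35.7 and 26.1 CPM in ADX and 25.1, 23.9 and 23.6 CPM in sham-operated cochleae. Hspa8, a chaperone that helps receptors fold, was at an unadjusted p under 0.05, with 2280, 3100 and 3150 CPM in ADX and 2050, 2120 and 2680 CPM in sham-operated cochleae. Of the 14 genes of receptors, chaperones and local steroid enzymes, 2 were higher and 1 lower at that level, beside 5.58% and 6.17% of all genes, so that the lower count is near the background. None of 13 aldosterone-responsive sodium transport genes was at an unadjusted p under 0.05, and their median log2 change was -0.00748.

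Clock genes showed no member at an unadjusted p under 0.05. The 12 genes high at dusk had a median log2 change of 0.061 and the 6 high at dawn one of -0.12. Per2, a core clock repressor, measured 46.4, 50 and 54.5 CPM in ADX and 32.9, 36.4 and 67.8 CPM in sham-operated cochleae after day noise, so that the sham-operated group spread more widely. Per3, a related clock gene, passed the threshold without noise, higher in ADX (111, 96.7 and 114 CPM in ADX, 55.2, 62.8 and 62.5 CPM in sham-operated cochleae, adjusted p = 0.0215, edgeR). With 1 library left out the number of genes past the threshold without noise was 0 for 4 of the 6 libraries, so that this call was then lost. After day noise Per3 measured 65, 64.3 and 62.3 CPM in ADX and 50.6, 62.7 and 87.4 CPM in sham-operated cochleae, with a log2 change of -0.0658 (95% interval -0.35 to 0.22). The test of the difference between these effects gave -0.90 (adjusted p = 0.155, edgeR).

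Immediate early genes, the transcription factors and signalling genes that cells switch on within minutes of a stimulus, tended to higher values in ADX. Of 26 tested, 25 had a higher mean in ADX, with a median log2 change of 0.36, and 11 were higher at an unadjusted p under 0.05, beside the 5.58% of all genes. In 2 of the 26, Fosl1 and Maff, the 3 ADX libraries lay above all 3 sham-operated ones, beside 5.9% of all genes. None passed the adjusted threshold, and with ADX a left out 3 did (Ier3, Klf4 and Zfp36, higher in ADX), beside 2.14% of all genes.

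Fos, which pairs with Jun proteins to form AP-1 (chromosome 12, 85473890 to 85477273), measured 44.4, 80.3 and 101 CPM in ADX a, b and c and 24.8, 65.9 and 41.9 CPM in sham-operated a, b and c. ADX b and c were the highest of the 6, but the groups overlapped, since sham-operated b exceeded ADX a. The log2 change was 0.77 (95% interval -0.00998 to 1.56, adjusted p = 0.43, edgeR). Without noise all 6 day libraries measured 7.78 to 12.8 CPM. Fosl1, another AP-1 subunit (chromosome 19, 5447547 to 5455946), measured 2.47, 2.9 and 4.36 CPM in ADX and 1.14, 2.42 and 2.17 CPM in sham-operated cochleae (log2 change 0.77, adjusted p = 0.386, edgeR). Ier3, a stress-induced survival gene (chromosome 17, 35821684 to 35822923), measured 29.2, 36.8 and 44.4 CPM in ADX and 16.3, 30.1 and 24.5 CPM in sham-operated cochleae, a 1.56-fold higher level (95% interval 1.21 to 2.01, adjusted p = 0.371, edgeR). Egr2, a zinc-finger factor also needed by Schwann cells for myelin, was the 1 member with a lower mean, at 33.9, 26.9 and 25.8 CPM in ADX and 37.5, 31.5 and 29.1 CPM in sham-operated cochleae.

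The libraries of each group were widely spread in these genes. The average over the list, relative to the mean of the 24 libraries, was 0.478, 0.737 and 1.02 (log2) in ADX a, b and c, against 0.0544, 0.66 and 0.381 in sham-operated a, b and c, and -0.689 to -0.521 in the 6 day libraries without noise. Sham-operated a was the lowest noise library of the 6 and ADX c the highest.

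Genes of stress and repair that noise switches on had the same tendency, with 14 of 15 higher in ADX, a median log2 change of 0.27 and 6 higher at an unadjusted p under 0.05, beside 5.58% of all genes. Gem, a GTP-binding protein that limits calcium channel activity (chromosome 4, 11704457 to 11714752), measured 28.3, 43 and 52.2 CPM in ADX and 9.09, 28.2 and 24 CPM in sham-operated cochleae. Its groups did not overlap, although ADX a and sham-operated b were nearly level, and its level was 2.03-fold higher (95% interval 1.33 to 3.12, adjusted p = 0.371, edgeR). Tnfrsf12a, the receptor for the cytokine TWEAK, measured 53.6, 62.8 and 70 CPM in ADX and 45.3, 50.8 and 52.9 CPM in sham-operated cochleae, with no overlap. Flnc, which crosslinks actin, measured 53.7, 50.2 and 57.5 CPM in ADX and 31.5, 43.6 and 44.5 CPM in sham-operated cochleae, also with no overlap. For Gdf15, a stress-induced cytokine, the values were 4.42, 6.54 and 8.57 CPM in ADX and 3.12, 4.49 and 6.18 CPM in sham-operated cochleae. Gem and Tnfrsf12a passed the threshold, higher, with ADX a left out, as did 2.14% of all genes.

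Of 21 chemokines and cytokines, 17 had a higher mean in ADX (median 0.19), with 5 higher and 0 lower at an unadjusted p under 0.05, beside 5.58% and 6.17% of all genes. Ccl2, which attracts monocytes (chromosome 11, 82035571 to 82037453), measured 2.43, 5.03 and 4.66 CPM in ADX and 1.91, 3.51 and 1.76 CPM in sham-operated cochleae. Its level was 1.71-fold higher (95% interval 1.08 to 2.7, adjusted p = 0.388, edgeR), and sham-operated b lay above ADX a. Cxcl1, a chemokine that draws neutrophils, had the largest change of the list, with 0.956, 0.796 and 1.55 CPM in ADX and 0.325, 0.619 and 0.406 CPM in sham-operated cochleae (2.45-fold, 95% interval 1.41 to 4.26, adjusted p = 0.371, edgeR). Il1b, which encodes the inflammatory cytokine interleukin 1 beta, measured 5.54, 14.6 and 9.93 CPM in ADX and 5.96, 9.7 and 5.91 CPM in sham-operated cochleae, and was the 1 member that passed with ADX a left out, beside 2.14% of all genes higher there.

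**Figure D3:**
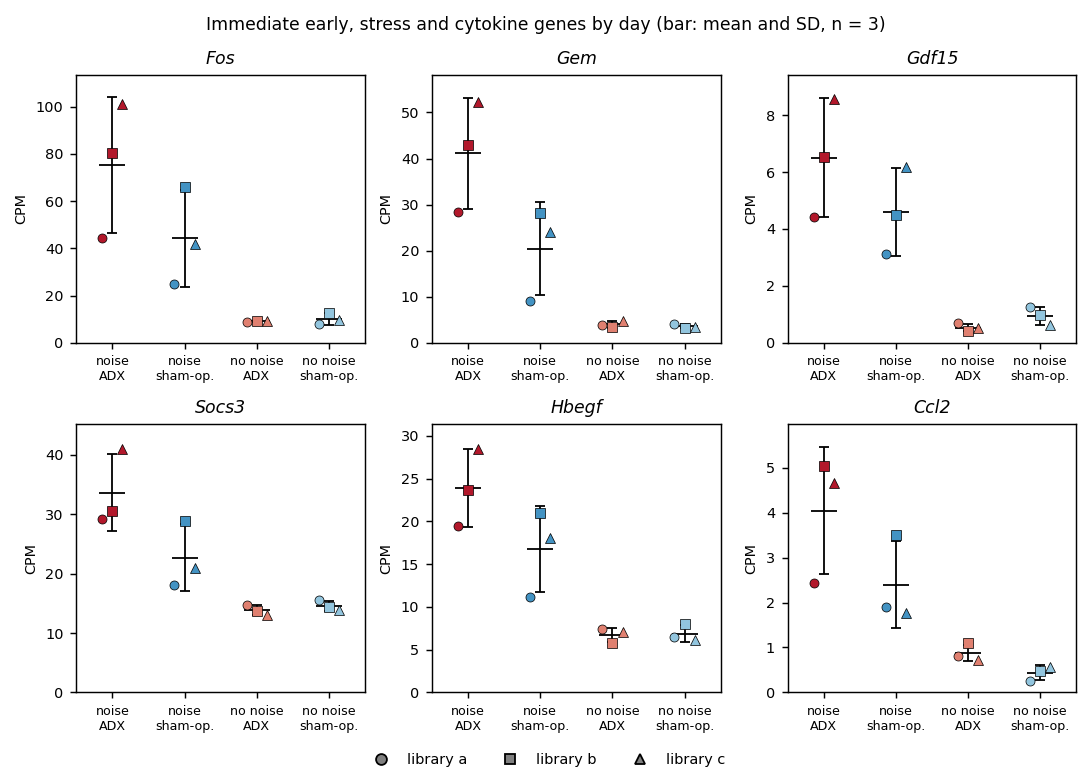
Levels of 6 immediate early, stress and cytokine genes by day. The y axes give CPM from 0, the points are the libraries a, b and c of each group, and the bars give mean and SD (n = 3). After noise ADX a is the lowest ADX library and sham-operated a the lowest or second lowest sham-operated library in all 6 genes, and Gem and Socs3 are the 2 in which the noise groups do not overlap.

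All 19 genes of NF-kB signalling and the acute phase had a higher mean in ADX, by a median of 0.12, with 4 at an unadjusted p under 0.05, beside 5.58% of all genes. Socs3, which restrains cytokine signalling through STAT3 (chromosome 11, 117966079 to 117970047), measured 29.2, 30.5 and 41 CPM in ADX and 18.1, 28.9 and 21 CPM in sham-operated cochleae. Its 3 ADX values lay above the 3 sham-operated ones, by 1.48-fold (95% interval 1.19 to 1.85, adjusted p = 0.371, edgeR). Of 21 interferon-stimulated genes 18 had a higher mean in ADX (median 0.19), with 2 higher at an unadjusted p under 0.05, a count near the 5.58% of all genes. These were Gbp5 and Tap1, in which ADX b and c were the highest of the 6 libraries. In 0 of the 21 all 3 ADX libraries lay above the sham-operated ones, and in 1 all lay below. Of 18 heat-shock and chaperone genes 17 had a higher mean (median 0.24), with 5 at that level, beside the same 5.58%. Hspa5, a chaperone of the endoplasmic reticulum, measured 926, 1080 and 1170 CPM in ADX and 772, 859 and 963 CPM in sham-operated cochleae. Hspb1, a small heat-shock protein, measured 94.9, 100 and 118 CPM in ADX and 72, 71.6 and 84.1 CPM in sham-operated cochleae, with no overlap (log2 change 0.46, adjusted p = 0.435, edgeR). Hspa1a and Hspa1b, which had log2 changes of 0.55 and 0.76, are near-identical copies, so how reads were shared between them is uncertain. Hmox1, an enzyme that breaks down heme, measured 221, 256 and 314 CPM in ADX and 212, 174 and 172 CPM in sham-operated cochleae (1.42-fold, 95% interval 1.13 to 1.78, adjusted p = 0.371, edgeR), while the median of 14 oxidative stress genes was 0.0353.

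Genes of marrow and blood cells also had higher means in ADX, and none passed the threshold. All 13 neutrophil genes had a higher mean in ADX (median 0.35, 4 at an unadjusted p under 0.05, beside 5.58% of all genes), and their summed level was 7248, 13270 and 10550 CPM in ADX a, b and c, against 8723, 7704 and 6582 CPM in sham-operated a, b and c. S100a9, a calcium-binding protein abundant in neutrophils (chromosome 3, 90692632 to 90695721), measured 2020, 4930 and 3100 CPM in ADX and 2520, 2220 and 1830 CPM in sham-operated cochleae, so that ADX a lay among the sham-operated libraries. Its level was 1.53-fold higher in ADX (95% interval 1.13 to 2.08, adjusted p = 0.371, edgeR), and it passed with ADX a left out, as did S100a8, Cxcr2 and Csf3r of the same list and 2.14% of all genes. All 11 macrophage genes had a higher mean (median 0.27, 4 at an unadjusted p under 0.05, beside the same 5.58%), summing to 863.9, 1101 and 1177 CPM in ADX and 927.4, 958.5 and 717.1 CPM in sham-operated cochleae. Tyrobp, a signalling adaptor of myeloid cells, measured 103, 175 and 162 CPM in ADX and 121, 122 and 97.9 CPM in sham-operated cochleae.

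Erythroid genes separated the groups more evenly. All 10 tested had a higher mean in ADX (median 0.33). In 8 of 10 the 3 ADX libraries lay above the 3 sham-operated ones, beside 5.9% of all genes. At an unadjusted p under 0.05 stood 2 of them, beside 5.58% of all genes. The summed level of the 10 was 5627, 6044 and 6388 CPM in ADX and 4999, 5071 and 4712 CPM in sham-operated cochleae. Car2, carbonic anhydrase 2, which osteoclasts and other cells also express, measured 1200, 1420 and 1450 CPM in ADX and 1090, 1080 and 1070 CPM in sham-operated cochleae (log2 change 0.33, adjusted p = 0.402, edgeR). Cell cycle genes had the same order, with 16 of 16 higher in ADX and a median of 0.24. In 8 of 16 the groups did not overlap, beside the same 5.9%, and 3 were at an unadjusted p under 0.05, beside 5.58%. None of the 16 passed the adjusted threshold with ADX a left out, beside 2.14% of all genes higher there. Tyms, which makes thymidylate for DNA, measured 36.1, 44.9 and 52 CPM in ADX and 35.2, 32.7 and 31.5 CPM in sham-operated cochleae. Without noise by day the median change was -0.36 in the erythroid list and -0.30 in the neutrophil list, with lower values in ADX. The part of marrow and blood content in the chemokine, NF-kB and immediate early values was not tested.

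Antigen presentation genes set ADX b and c apart from the rest of the series. These and the ribosomal protein genes were collected as lists after their values were seen, so their counts are descriptions. H2-Aa, a class II antigen-presenting chain (chromosome 17, 34282744 to 34287823), measured 78.5 CPM in ADX a and 172 and 187 CPM in ADX b and c, against 86.7, 101 and 94.6 CPM in the sham-operated libraries. Over the 18 libraries of the other groups it ran from 76.4 to 114 CPM, so that ADX b and c exceeded every other library of the series. Cd74, the invariant chain that accompanies class II molecules (chromosome 18, 60803848 to 60812652), measured 296, 569 and 687 CPM in ADX and 348, 365 and 362 CPM in sham-operated cochleae, and 331 to 466 CPM in the 18 others. B2m, the light chain of class I molecules (chromosome 2, 122147686 to 122153083), measured 369, 723 and 514 CPM in ADX and 391, 424 and 388 CPM in sham-operated cochleae, and 344 to 462 CPM in the others.

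In each of these 3 genes ADX a was the lowest of the 6 day noise libraries. Of 10 class II genes 6 were higher in ADX at an unadjusted p under 0.05 and the same number passed with ADX a left out, beside 5.58% and 2.14% of all genes. Ciita, the master regulator of class II genes (chromosome 16, 10480059 to 10528418), was among them, with 24, 33.1 and 40.4 CPM in ADX and 22.2, 28.8 and 23.3 CPM in sham-operated cochleae. Of 12 class I processing genes 8 were higher at an unadjusted p under 0.05 and 10 passed with ADX a left out, Tap1, Psmb8 and Psmb9 among them, beside the same shares of all genes. The classical H2 genes are close relatives, and reads shared among them could have been split in counting. The summed level of 17 lymphoid genes was 781.1, 911.2 and 898.4 CPM in ADX and 716.8, 795.5 and 900.2 CPM in sham-operated cochleae.

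Class II promoters carry a Y box, which the factor NF-Y binds. Among the 7 of 10 class II genes with a promoter in the RefSeq set, 3 held CTGATTGG on either strand, as did 1271 of 27025 symbols (4.7%). The windows are shown on the strand of the gene, with the Y box in capitals, for the class II gene described above and the other 2 matches:
H2-Aa, chr17:34287856-34287885, minus strand: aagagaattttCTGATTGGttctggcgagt
H2-Eb1, chr17:34305794-34305823, plus strand: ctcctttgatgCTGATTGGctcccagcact
H2-Oa, chr17:34092322-34092351, plus strand: agagaactgctCTGATTGGctgcttaccgc
The log2 changes of the 3 genes after day noise were 0.63 for H2-Aa, 0.66 for H2-Eb1 and 0.17 for H2-Oa, a class II chain that modulates peptide loading in B cells, and the intervals of the first 2 lay above 0 (0.20 to 1.07 and 0.24 to 1.08).

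Ribosomal protein genes had higher values in ADX b and c as well. Of 74 such genes 74 had a higher mean in ADX, with a median log2 change of 0.27, 65 at an unadjusted p under 0.05 and 63 past the threshold with ADX a left out, beside 5.58% and 2.14% of all genes. Their summed level was 26330, 36280 and 31190 CPM in ADX a, b and c, against 27570, 25530 and 25910 CPM in the sham-operated libraries. Rpl35, a protein of the large ribosomal subunit (chromosome 2, 39001580 to 39005624), measured 229, 355 and 285 CPM in ADX and 239, 221 and 225 CPM in sham-operated cochleae, and 212 to 259 CPM in the 18 other libraries. These genes have short transcripts and many pseudogenes, and ADX b was also the library in which short transcripts were highest. The part of transcript length in this result was not tested.

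**Figure D4:**
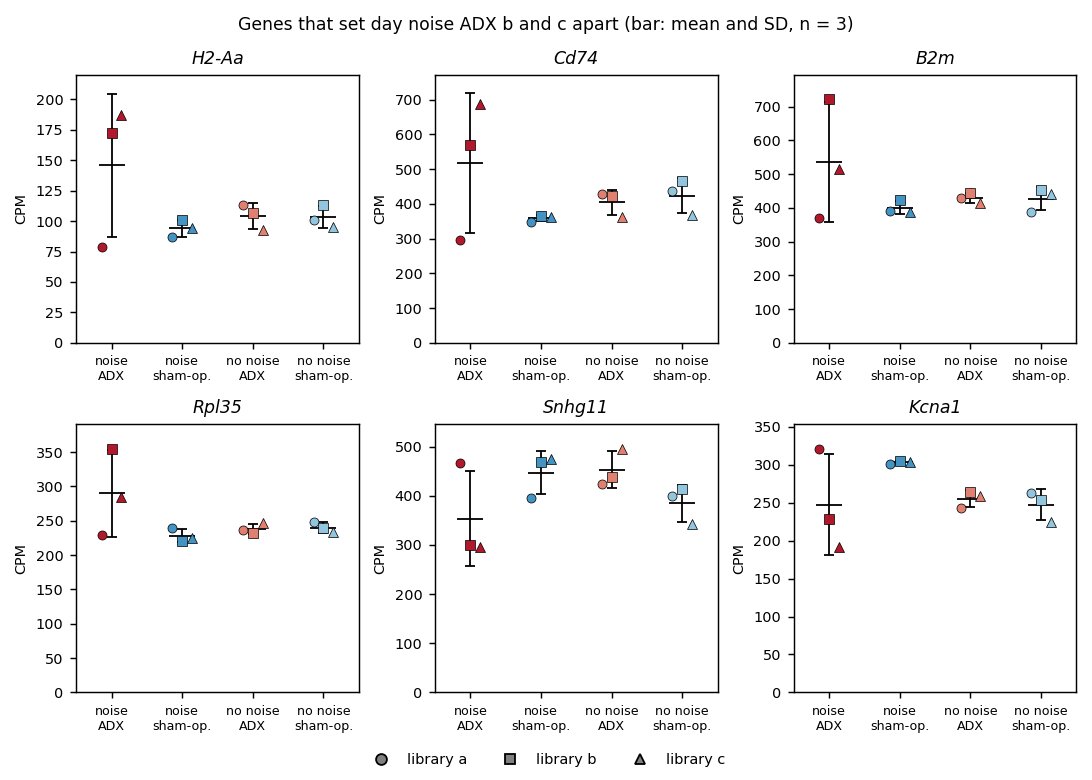
Levels of 6 genes, chosen after their values were seen, in which day noise ADX b and c stand apart. The y axes give CPM from 0, the points are the libraries a, b and c of each group, and the bars give mean and SD (n = 3). In H2-Aa, Cd74, B2m and Rpl35 both libraries lie above the other 10 day libraries, and in Snhg11 and Kcna1 both lie below ADX a and the sham-operated libraries of the noise groups.

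Hair cell genes had lower values in ADX, with 13 of 14 lower, a median log2 change of -0.43 and 7 of 14 in which all 3 ADX libraries lay below the 3 sham-operated ones, beside 6.84% of all genes. At an unadjusted p under 0.05 stood 4 of them, Otof, Chrna9, Chrna10 and Espn, beside 6.17% of all genes, and with ADX a left out none passed. Otof, the calcium sensor of transmitter release in inner hair cells (chromosome 5, 30367062 to 30461932), measured 64.2, 65 and 57.5 CPM in ADX and 105, 82.5 and 87.3 CPM in sham-operated cochleae. These ADX values also lay below the 18 libraries of the other groups, which ran from 73.2 to 126 CPM. The level was 0.678-fold that of sham-operated cochleae (95% interval 0.542 to 0.849, adjusted p = 0.371, edgeR). Chrna10, a subunit of the receptor through which efferent nerves inhibit hair cells (chromosome 7, 102111266 to 102116828), measured 5.9, 7.62 and 6.67 CPM in ADX and 11.8, 10.4 and 9.61 CPM in sham-operated cochleae, and 8.66 to 15.3 CPM in the others. Both genes separated ADX a from the sham-operated libraries as clearly as ADX b and c. Myo7a, a motor protein of the hair bundle, and Ocm, a calcium buffer of outer hair cells, had changes of 0.00717 and -0.00969.

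The summed level of the 14 hair cell genes was 225.9, 242 and 212.8 CPM in ADX and 312.2, 262.3 and 263.2 CPM in sham-operated cochleae after day noise, and 236 to 298.5 CPM in ADX and 273.9 to 337.8 CPM in sham-operated cochleae without noise. Among 12 supporting cell genes 9 had a lower mean in ADX, 4 of them at an unadjusted p under 0.05, beside 6.17% of all genes. Tecta, a protein of the tectorial membrane, measured 14.6, 14.6 and 8.34 CPM in ADX and 36.8, 18.4 and 18.9 CPM in sham-operated cochleae, a log2 change of -0.98 (95% interval -1.79 to -0.18, adjusted p = 0.378, edgeR). Sham-operated a was far above the other 5 libraries, as it was for Tectb and Otog of the same list. Lfng, a modulator of Notch signalling, was the 1 supporting cell gene higher in ADX at an unadjusted p under 0.05, with 35.4, 38.5 and 40.7 CPM in ADX and 32.7, 31.1 and 29.2 CPM in sham-operated cochleae.

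Genes of neurons and glia had lower summed levels in ADX b and c, and that of ADX a was closer to the sham-operated libraries. The spiral ganglion sums were 2979, 2543 and 2153 CPM in ADX and 3078, 3001 and 3301 CPM in sham-operated cochleae. All 3 ADX libraries, ADX a included, lay below the sham-operated ones in 4 of 12 spiral ganglion genes and 1 of 12 glial genes, beside 6.84% of all genes. Of 12 spiral ganglion genes 10 had a lower mean (median -0.23, 4 at an unadjusted p under 0.05, beside 6.17% of all genes). Snap25, Nefm and Nefh passed, lower, with ADX a left out, as did 2.4% of all genes. Nefm, a neurofilament subunit (chromosome 14, 68082590 to 68124846), measured 519, 426 and 356 CPM in ADX and 571, 571 and 579 CPM in sham-operated cochleae (0.756-fold, 95% interval 0.631 to 0.905, adjusted p = 0.371, edgeR). Without noise the order was the other way round, with 436, 515 and 505 CPM in ADX and 460, 388 and 329 CPM in sham-operated cochleae, and the difference of the effects was -0.71 (adjusted p = 0.159, edgeR). Prph, an intermediate filament gene of the minor, unmyelinated type II neurons, went the other way. It measured 2.39, 12.3 and 19 CPM in ADX and 2.47, 1.55 and 2.48 CPM in sham-operated cochleae. Values over 12 CPM also occurred in other groups, and the 18 other libraries spread from 1.73 to 21.8 CPM.

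Of 12 genes of glia and myelin 11 had a lower mean in ADX (median -0.24, 3 at an unadjusted p under 0.05, beside 6.17% of all genes). Cnp, an enzyme of myelin, measured 291, 270 and 249 CPM in ADX and 292, 293 and 334 CPM in sham-operated cochleae. Their summed level was 4927, 4446 and 3606 CPM in ADX and 4989, 5068 and 5713 CPM in sham-operated cochleae, so that ADX c was the lowest. In the test of the difference between the day effects, 6 of 12 spiral ganglion genes and 5 of 12 glial genes were lower at an unadjusted p under 0.05, where 1424 genes (8.57%) of all were. Kcna1, a potassium channel subunit chosen after its values were seen, followed the same libraries, with 321, 228 and 192 CPM in ADX and 301, 305 and 303 CPM in sham-operated cochleae. All 10 genes typical of the cerebellum, which shares many neuronal genes, also had a lower mean in ADX (sums of 161.7, 137.3 and 129.4 CPM in ADX and 192.6, 173.7 and 168.7 CPM in sham-operated cochleae). Whether nerve tissue taken with the cochlea had a part in this was not tested.

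Bdnf, a neurotrophin that keeps neurons alive (chromosome 2, 109674700 to 109727007), was the neurotrophin gene with the smallest p. It measured 1.39, 1.93 and 1.52 CPM in ADX and 4.58, 2.01 and 3.29 CPM in sham-operated cochleae. The groups did not overlap, but sham-operated b was close to ADX b, and all 3 ADX values and that of sham-operated b lay below the 18 libraries of the other groups (2.49 to 5.25 CPM). Its log2 change was -1.03 (95% interval -1.57 to -0.48, adjusted p = 0.371, edgeR). Its receptor gene Ntrk2 measured 118, 98.2 and 92.9 CPM in ADX and 118, 124 and 129 CPM in sham-operated cochleae, a log2 change of -0.27 (adjusted p = 0.422, edgeR).

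The 10 genes with the smallest unadjusted p in each direction included 19 of 20 in which the groups did not overlap, which the ranking by p favours. Tril, which assists Toll-like receptors (chromosome 6, 53815468 to 53820830), had the smallest unadjusted p of all genes in edgeR's test. It measured 12.7, 12.9 and 9.82 CPM in ADX and 22.2, 18.7 and 17 CPM in sham-operated cochleae, and 13.9 to 21.9 CPM in the 18 others (0.612-fold, 95% interval 0.496 to 0.756, adjusted p = 0.371, edgeR). Pcdh20, a protocadherin of cell adhesion (chromosome 14, 88464743 to 88471396), measured 14.1, 14.2 and 11 CPM in ADX and 25.8, 22.1 and 19.4 CPM in sham-operated cochleae, and 16.9 to 29.9 CPM in the others. In both genes all 3 ADX libraries lay below every other library of the series. Emc1, a subunit of a complex that inserts membrane proteins (chromosome 4, 139352587 to 139378730), differed by little but with little spread, at 50, 53.3 and 50 CPM in ADX and 59.2, 61.1 and 60.6 CPM in sham-operated cochleae, and 54.8 to 62.9 CPM in the others (0.848-fold, 95% interval 0.789 to 0.912).

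Sema3e, a guidance cue for axons and vessels, measured 27.3, 21.2 and 18.7 CPM in ADX and 30.5, 36.2 and 32.6 CPM in sham-operated cochleae. Camk2n1, an inhibitor of the kinase CaMKII, measured 34.6, 33.6 and 32.4 CPM in ADX and 41.9, 41.8 and 41.5 CPM in sham-operated cochleae. Both lay lower in ADX, by log2 changes of -0.56 and -0.32, without overlap. Lancl3, Rbm24, Ppp1r27, Leprotl1 and Armcx1 completed the lower genes, with log2 changes of -0.67, -0.63, -0.92, -0.20 and -0.33. In Lancl3 and Armcx1 ADX a was the ADX library closest to the sham-operated ones.

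Among the 10 higher genes, Cd300e, a receptor of monocytes (chromosome 11, 115051917 to 115062177), measured 3.98, 5.97 and 7.09 CPM in ADX and 2.84, 3.2 and 2.66 CPM in sham-operated cochleae (1.96-fold, 95% interval 1.46 to 2.64, adjusted p = 0.371, edgeR). Without noise its order was the other way round, with 2.99, 3.26 and 3.86 CPM in ADX and 5.31, 4.93 and 4.48 CPM in sham-operated cochleae. Erf, a repressor of the ETS family downstream of ERK (chromosome 7, 25242561 to 25250761), measured 45.2, 48.4 and 49.5 CPM in ADX and 37.3, 36 and 40.6 CPM in sham-operated cochleae, against 29.5 to 35.7 CPM in the 6 day libraries without noise. Slc29a1, a nucleoside transporter, measured 171, 200 and 201 CPM in ADX and 160, 153 and 160 CPM in sham-operated cochleae. Dvl1, a relay of Wnt signals, measured 124, 122 and 122 CPM in ADX and 109, 101 and 110 CPM in sham-operated cochleae. Fam89a, Klrc1, Neurl1b, Cckar and Zdhhc18 were also among the higher genes. Cckar, a receptor for cholecystokinin, was the 1 of the 20 with overlapping groups, at 0.199, 2.02 and 3.11 CPM in ADX and 0.162, 0.103 and 0.316 CPM in sham-operated cochleae. Of the 20 genes, 18 passed with ADX a left out, beside 2.14% of all genes higher and 2.4% lower there. The 20 were picked by their p in these same libraries, so this count is no separate support for them.

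**Figure D5:**
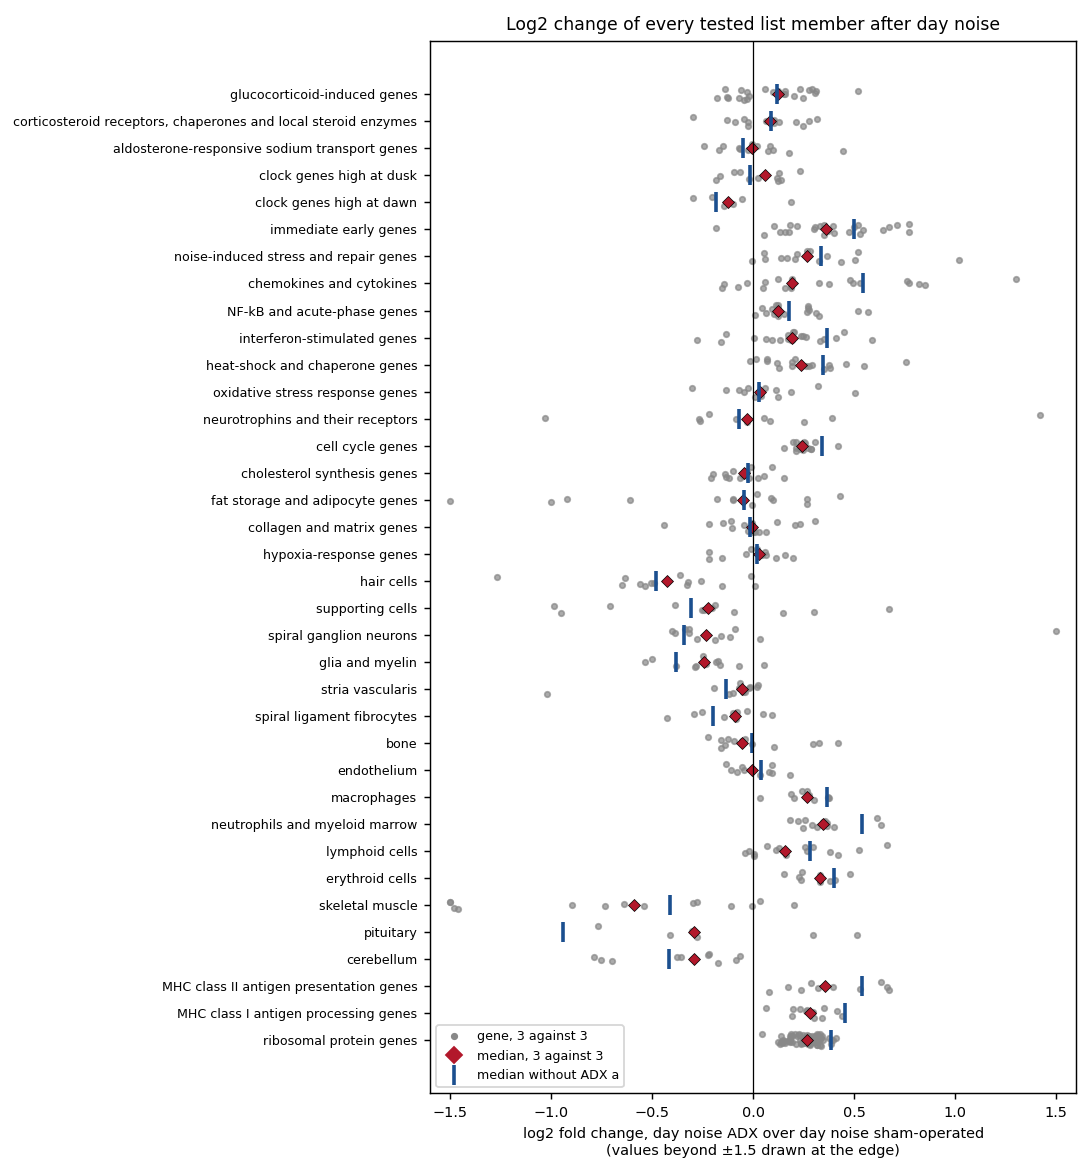
Log2 change (ADX over sham-operated after day noise) of each tested member of 36 gene lists. Grey points are genes, red diamonds the list medians with all 6 libraries, and blue bars the medians without ADX a; values beyond 1.5 in either direction are drawn at the edge. Medians of the immediate early, neutrophil, erythroid and antigen presentation lists lie to the right of 0 (0.33 to 0.36 for the first 3). Those of hair cells, neurons and glia lie to the left (-0.43, -0.23 and -0.24). So do those of skeletal muscle, cerebellum and pituitary genes (-0.59, -0.292 and -0.291), and skeletal muscle has the lowest median of all lists.

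Without noise by day, the same operation gave 7 genes (0.0422%) past the threshold in edgeR's test, against 179 with DESeq2 and 112 with voom. None passed when ADX a, ADX b, sham-operated a or sham-operated c of that exposure was left out, 13 passed without ADX c and 30 without sham-operated b. Among the 7, Rag2, Per3 and Lef1 were higher in ADX and Pkp1 and Rnf149 lower. After day noise no gene passed, these 7 included. Pkp1, a desmosome protein, and Rnf149, a ubiquitin ligase, had lower means in ADX after noise too, at 8.88 ± 1.16 and 54.1 ± 2.73 CPM in ADX against 13.2 ± 4.17 and 65 ± 8.56 CPM in sham-operated cochleae (SD, n = 3).

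Beside the operation before night noise, the immediate early genes differed in direction. After night noise 10 of the 26 were lower in ADX at an unadjusted p under 0.05, beside 4.81% of all genes, and 0 of 16607 genes (0%) passed the adjusted threshold in edgeR's test. Over all genes 1420 had an unadjusted p under 0.05 there, DESeq2 called 15, voom called 1, and edgeR called 162 with night noise ADX a left out. Fos measured 66.7, 63.6 and 25.2 CPM in ADX and 122, 115 and 51.1 CPM in sham-operated cochleae after night noise, a log2 change of -0.89 beside the 0.77 after day noise. Ier3 measured 30.7, 27.2 and 23.3 CPM in ADX and 43, 45.9 and 34.1 CPM in sham-operated cochleae after night noise, with all ADX values below all sham-operated ones. In the test of the difference between the day noise and night noise effects, Ier3 had 1.24 (adjusted p = 0.176, edgeR), and 19 of the 26 genes were higher at an unadjusted p under 0.05, where 1196 genes (7.2%) of all were. In that test, too, 0 genes (0%) passed the adjusted threshold with edgeR, of 2407 at an unadjusted p under 0.05. DESeq2 called 38, voom called 0, and edgeR called 600 with day noise ADX a and 287 with night noise ADX a left out. The glucocorticoid-induced list had 12 of 25 members higher in it at an unadjusted p under 0.05. Fkbp5 measured 87.6, 39.6 and 28.1 CPM in ADX and 85, 101 and 132 CPM in sham-operated cochleae after night noise. The 87.6 CPM came from night noise ADX a, the library with pituitary transcripts, and their part in this value was not tested.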

How the data were processed

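Whole-cochlea RNA of 24 libraries was prepared with a stranded mRNA kit from 300 ng of RNA and read as 50-base single reads in pools of 6, per the labels' protocols. The authors deposited unnormalized read counts, 1 row for each gene symbol. The submitters' processing notes name TopHat2 2.0.11, HTSeq 0.6p1 and mm10. The annotation and the strand setting are not given in the sources used here, so reads of overlapping or antisense genes may be mixed. Of 23420 entries 3340 had no count, and 27 had names turned into dates (0.214% of counts), which were kept as unidentified. The tests used edgeR 4.0.16 under R 4.3.3: filterByExpr on 8 groups (16607 genes), TMM factors, 1 coefficient per group over all 24 libraries, robust quasi-likelihood F-tests, two-sided, and Benjamini-Hochberg adjustment over all genes, called at 0.05. The biological coefficient of variation shared by all genes came to 0.0991. Log2 CPM used a prior count of 2. The pipeline was tested on simulated data, in which no library was set apart from its group and no trend with transcript length was drawn. That test therefore does not cover these features of the day noise libraries. Positions came from GENCODE vM21 (GRCm38) by symbol, matching 21751 entries.

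The 6 pairs of day noise libraries within a group differed by more than sampling noise, with a chi-square per gene of 8.43 to 26.8; other pairs were not compared in this way. Alternatives were RLE size factors, DESeq2 1.42.0, voom with library weights of limma 3.58.1, no filter, a fit of the groups compared alone, a replicate block, leaving out each library and, added after seeing the data, a fit without 3 libraries with pituitary or cerebellar transcripts. The groups, the 33 gene lists (482 of 483 entries in the table) and the tests were chosen with earlier results of these data known. 3 further lists were added after the values were seen. Named genes follow a rule: the 10 smallest unadjusted p in each direction (as fewer than 10 passed), 18 fixed genes (Fkbp5, Tsc22d3, Sgk1, Per1, Zbtb16, Dusp1, Nr3c1, Nr3c2, Hsd11b1, Per2, Nr1d1, Dbp, Arntl, Fos, Gem, Gdf15, Ccl2 and Bdnf) and up to 2 members with the largest change of each list; not all are named, and other members named were chosen after their values were seen. A few genes that the rule names are not reported here.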

Additional observations from a re-analysis of the deposited data

How the results depend on the processing

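The count of genes past the threshold after day noise was 0 with RLE, voom, no filter, only the groups compared, the replicate block and the fit without 3 libraries, 2 with DESeq2, and 0 to 760 when 1 library was left out, 760 without ADX a. The count of list members was then 0 to 26. Deviations of same-letter day noise libraries correlated with r = 0.0974, 0.152 and -0.0277 over 14319 genes. Those of different-letter libraries correlated with r from -0.208 to 0.12. With 3 libraries per group these values cannot decide whether the letters mark pairs. Without noise by day the 7 calls became 179 (DESeq2), 112 (voom), 88 (only the groups compared), 73 (without 3 libraries), 6 (replicate block) and 0 to 30 (1 library left out: 30 without sham-operated b, 13 without ADX c and 0 without any of the other 4). The difference of the day effects gave 160 calls (DESeq2), 264 (voom), 12 (only the groups compared) and 0 to 811 with 1 library left out, 811 without day noise ADX a. For night noise they were 15 (DESeq2), 1 (voom), 33 (without 3 libraries) and 0 to 162, 162 without night noise ADX a, and for the difference between day and night noise 38 (DESeq2), 11 (without 3 libraries) and 0 to 600, 600 without day noise ADX a and 287 without night noise ADX a. The causes were not tested. DESeq2 gave no adjusted p for 5, 5, 3866, 1614 and 327 genes in the 5 comparisons.

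Of 1244 values of 96 named genes under 13 settings, 1196 kept direction and side of the threshold, 30 passed it and 18 changed sign, none of them past it. Log2 changes of Fkbp5 were 0.0216 (voom), 0.00298 (replicate block) and -0.242 to 0.271 (1 library left out), of Ucp1 2.18 (voom) and -5.41 to 8.62, of Plin1 0.295 (voom) and -1.52 to 1.21, and of Pcp2 0.897 (voom) and -1.75 to 3.3. With 1 library left out they ran from -0.087 to 0.214 for Tsc22d3, -0.338 to 0.357 for Zbtb16, -0.0672 to 0.0178 for Nr3c1, -0.0525 to 0.543 for Per2 and -0.0164 to 0.3 for Dbp.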
